A study of Homo sapiens with 8 samples.

Results

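The 10 genes described here encode proteins that build, carry or act within small nucleolar ribonucleoproteins (snoRNPs), and they were taken by gene name from ribosome profiling tables of human fibroblasts. They comprised the 4 proteins of the H/ACA particle (DKC1, NOP10, NHP2 and GAR1), 2 H/ACA assembly factors (NAF1 and SHQ1), 3 proteins of the C/D particle (NOP56, NOP58 and FBL) and NOLC1, a chaperone that binds both kinds of particle. All 10 were listed in both tables, among 10685 genes listed in both.

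Ribosome profiling sequences the stretches of mRNA that translating ribosomes protect from nuclease. It had been applied to the established skin fibroblast line BJ, and all clones were labelled BJ-HRAS. HRAS is a small GTPase, and 4-hydroxytamoxifen (4-OHT) is an estrogen receptor ligand that serves in many cell systems as an inducer of engineered fusion proteins. Neither the HRAS allele nor the protein that 4-OHT acts on is named in the labels. The KO group with 4-OHT held SNORA13 KO clones 66 and 69 after 7 days of 100 nM 4-OHT, and the WT group with 4-OHT held WT clones 15 and 54 after the same treatment. The KO and WT groups without 4-OHT held the same 4 clones without it. Each group therefore had 2 libraries, each from an independent clone, so that the genotype cannot be told apart from the clones that carry it. The libraries with and without 4-OHT stood in separate tables, and the 4-OHT treatment cannot be told apart from anything else that differed between the tables.

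Small nucleolar RNAs pair with ribosomal RNA and direct proteins to the nucleotide that is to be modified. H/ACA RNAs guide the conversion of uridine to pseudouridine, and C/D RNAs guide methylation of the ribose. The H/ACA proteins also bind the RNA of telomerase, and SNORA13, the RNA deleted in the KO clones, belongs to the H/ACA class.

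The values were RPKM, footprint reads scaled by gene length and by the reads of the library, and the length in them was that of the whole gene with its introns. For 8 members that length was 1.00 to 1.03 times the RefSeq span given here. For NAF1 it was 0.638 times and for SHQ1 0.805 times, if their reads are the smallest whole numbers that fit the values, which is how reads are given below. A level is therefore low for a gene with long introns whatever its mRNA, so a level has meaning below only against the same gene, or the same set of genes, in another library. The read depth implied by the values lay between 190878 and 1710472 a library. The library of KO clone 66 with 4-OHT was the shallowest and listed 3169 of 11079 genes at 0. The values of each member came back as whole reads in all 8 libraries, between 2 and 607 reads, and 95% intervals given here are exact Poisson intervals of those reads, which cover counting error only. SNORA13, its host gene EPB41L4A-AS1 and HRAS were not listed under these names, so the labelled genotype could not be checked on its own gene.

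All 10 fibroblast markers examined were listed, among them COL1A1, DCN and VIM. They did not move as 1 set. With 4-OHT 7 stood lower in every library, among them COL1A1 at 77.1 to 116 RPKM, against 983 to 1699 RPKM without it, and DCN at 0.914 to 1.49 RPKM, against 38.2 to 52.8 RPKM. VIM, at 1787 to 2453 RPKM with 4-OHT and 559 to 662 RPKM without it, and S100A4 stood higher, and THY1 overlapped. Summed, the 10 reached 2761 to 3681 RPKM with 4-OHT and 3250 to 3968 RPKM without it, which overlap, and 2.52% to 3.03% of recovered reads with 4-OHT, against 5.86% to 7.55% without it. Of the keratinocyte, melanocyte and endothelial markers, 1 of 6, 1 of 6 and 1 of 5 were listed in each table. KRT5, KRT14, MLANA, TYR and CDH5 were not. KRT10, the listed keratinocyte marker, stood higher in every library with 4-OHT, at 2.26 to 10.2 RPKM against 0 to 0.84 RPKM without it. MITF, the listed melanocyte marker, stood lower, at 0.0593 to 0.229 RPKM with 4-OHT against 0.282 to 0.349 RPKM without it. Endothelial markers summed to at most 0.0249 RPKM, from a different gene with and without 4-OHT. These levels over whole gene spans do not compare between cell types. Leukocyte markers summed to 77.1 to 151 RPKM with 4-OHT and 43.3 to 101 RPKM without it, nearly all of it CD68, and epithelial markers to 27.6 to 51.6 RPKM with 4-OHT and 44.1 to 94.7 RPKM without it, nearly all of it KRT18. The part of these marker shifts in the results below was not tested. In bulk libraries a change in the share of cells that make a protein cannot be told apart from a change per cell. RNA levels were not analysed here, so mRNA amount and translation cannot be told apart either.

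The stretches just upstream of 4 members are shown because NOP10 and GAR1 (H/ACA) and FBL (C/D) were higher with 4-OHT while NOP56 (C/D) was lower. They are the 120 bases before the annotated gene start, read along the gene, from RefSeq on GRCh38.p14. NOP10 lies at chr15:34343137-34343256 on the minus strand, GAR1 at chr4:109815390-109815509 on the plus strand, FBL at chr19:39846380-39846499 on the minus strand and NOP56 at chr20:2652512-2652631 on the plus strand. Capitals mark CACGTG (the E-box, the letters known to be bound by MYC) and CCGGAAG or its complement CTTCCGG (an ETS motif).
NOP10: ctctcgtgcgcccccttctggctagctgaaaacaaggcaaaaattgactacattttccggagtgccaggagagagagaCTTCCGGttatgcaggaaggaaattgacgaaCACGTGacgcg
GAR1: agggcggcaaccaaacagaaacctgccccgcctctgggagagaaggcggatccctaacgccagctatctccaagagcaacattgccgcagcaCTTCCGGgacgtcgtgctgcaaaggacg
FBL: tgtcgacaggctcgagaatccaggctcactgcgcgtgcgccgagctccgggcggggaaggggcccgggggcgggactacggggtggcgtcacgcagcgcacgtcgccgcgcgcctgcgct
NOP56: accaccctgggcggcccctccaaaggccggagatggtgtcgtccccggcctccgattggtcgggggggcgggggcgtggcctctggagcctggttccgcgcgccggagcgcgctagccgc
In the full 250 upstream bases, which the RefSeq table gave for 7 members (not NAF1, NOP58 or NOLC1), the E-box was found in NOP10 only. It stood there at 2 places, bases -170 and -11 from the start, and 6.49% of 27305 promoters of this length held it on either strand. The ETS letters were found in NOP10, GAR1, SHQ1 and FBL, that is in 4 of 7 members against 8.82% of all promoters, and in FBL they lay at base -193, outside the stretch shown. DKC1 and NHP2, which also rose with 4-OHT but are not shown, held neither the E-box nor the ETS letters. SHQ1, which held the ETS letters, was not called. Whether the letters go with the direction of change was not tested. GGGCGG (the GC box) was found in 6 of 7 members, all but NOP10, against 42.3% of all promoters. TATAAA was found in 0 of 7, against 11.1% of all promoters. No match of 1 motif overlapped a match of another. These are matches of letters and not binding sites. The 27305 promoters include genes not listed in these data, so their shares are not a like-for-like background for the 7 members.

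With 4-OHT, the 4 proteins of the H/ACA particle rose in both genotypes. NOP10, the smallest of them, which braces the catalytic protein, had 232 RPKM in KO clone 66 and 294 RPKM in KO clone 69 with 4-OHT, against 60.5 and 65.0 RPKM in the same clones without it. In WT clones 15 and 54 it had 246 and 257 RPKM with 4-OHT, against 44.9 and 59.6 RPKM without it. All 4 libraries with 4-OHT stood above all 4 without it, and each clone moved between 3.84-fold and 5.47-fold. The log2 fold change was 2.04 ± 0.21 (SE, n = 2 clones) in KO clones by limma-trend (adjusted p = 8.36e-04) and 2.26 ± 0.21 in WT clones (adjusted p = 6.62e-04).

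NHP2, a core protein that binds the RNA of the particle, had 36.0 RPKM in KO clone 66 and 30.9 RPKM in KO clone 69 with 4-OHT, against 9.10 and 10.2 RPKM without it. WT clones 15 and 54 had 32.6 and 45.6 RPKM with 4-OHT, against 6.88 and 11.5 RPKM without it. The libraries with and without 4-OHT did not overlap, and the clones rose 3.02-fold to 4.74-fold. The log2 fold change by limma-trend was 1.69 ± 0.27 in KO clones (adjusted p = 0.00440) and 1.995 ± 0.27 in WT clones (adjusted p = 0.00273). The span of NHP2 overlaps that of RMND5B at 1 end, and how reads there were assigned is not given in the sources used here.

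GAR1, which joins the particle last, had 10.2 RPKM in KO clone 66 and 9.82 RPKM in KO clone 69 with 4-OHT, against 1.68 and 2.85 RPKM without it. In WT clones 15 and 54 it had 4.56 and 6.44 RPKM with 4-OHT, against 1.80 and 1.37 RPKM without it. All libraries with 4-OHT were above all without it, and the clones ranged from 2.53-fold (WT 15) to 6.08-fold (KO 66). In KO clone 66 the values of GAR1 rested on 18 reads with 4-OHT and 14 without it. WT clone 54 had 10 reads of GAR1 without 4-OHT. By limma-trend the log2 fold change was 1.78 ± 0.25 in KO clones (adjusted p = 0.00278) and 1.32 ± 0.25 in WT clones (adjusted p = 0.0102). In WT clones the adjusted p was 0.0797 without the untreated library of clone 54 and 0.0764 without the treated one.

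DKC1 (dyskerin), the pseudouridine synthase itself, had the smallest change of the 4. It had 8.06 RPKM in KO clone 66 and 7.08 RPKM in KO clone 69 with 4-OHT, against 3.19 and 2.86 RPKM without it. WT clones 15 and 54 had 5.36 and 4.66 RPKM with 4-OHT, against 2.48 and 2.96 RPKM without it. The 4-OHT libraries again stood clear of the others, with both KO clones above both WT clones among them. The log2 fold change by limma-trend was 1.09 ± 0.19 in KO clones (adjusted p = 0.00602), where it was called under all 11 alternative settings. In WT clones it was 0.69 ± 0.19 (adjusted p = 0.0394). That call was lost with the clone as a block (adjusted p = 0.0801), under median-ratio scaling (adjusted p = 0.120) and without any 1 of the 4 WT libraries (adjusted p from 0.110 to 0.206).

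**Figure D1:**
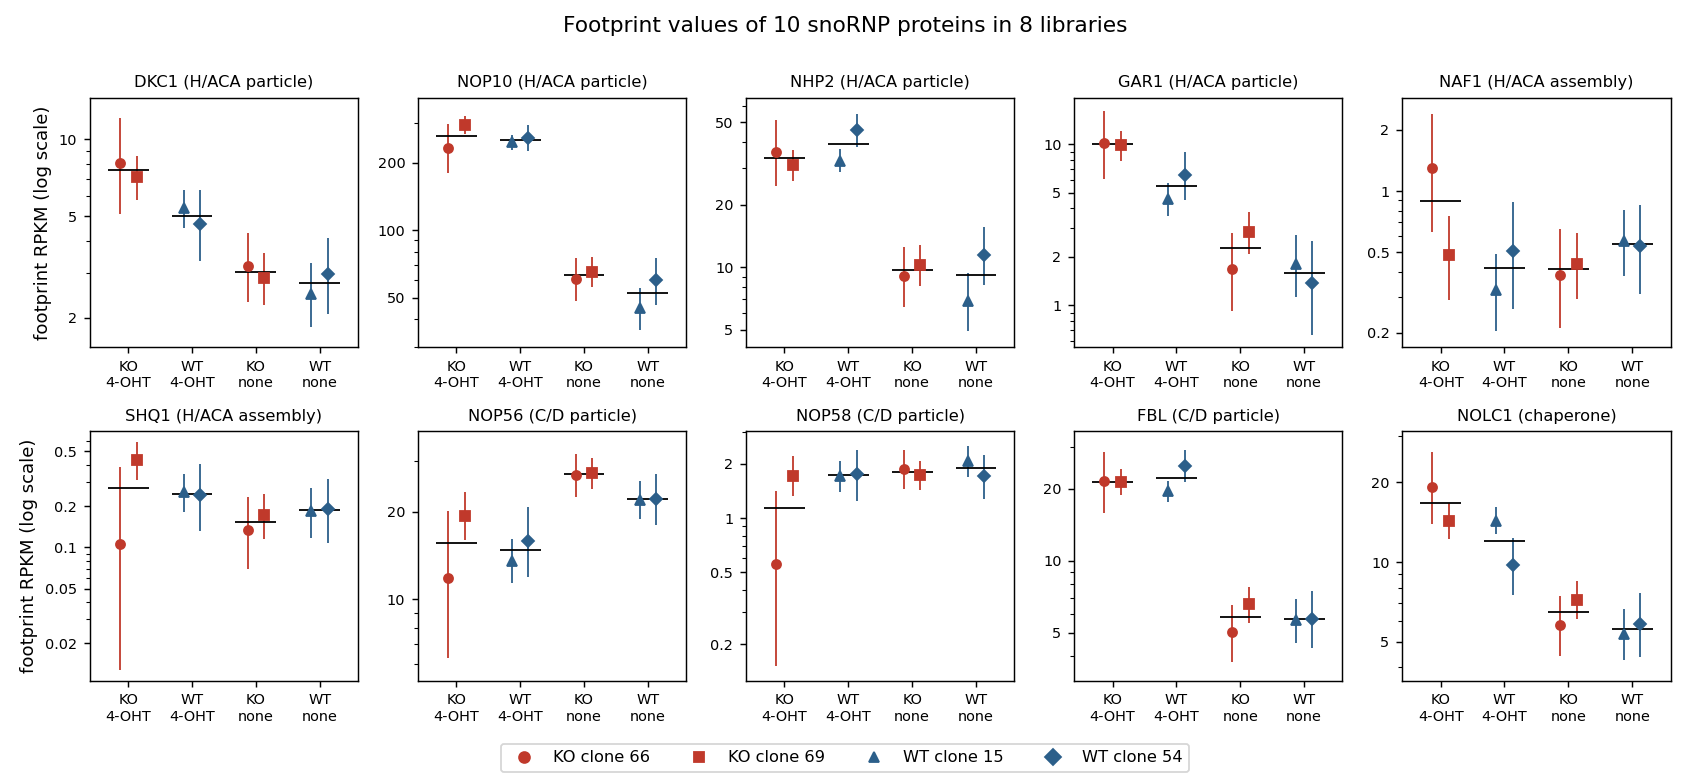
Footprint RPKM (log scale) of the 10 proteins in each library, with 95% Poisson intervals of the reads; red symbols are KO clones, blue symbols WT clones, and horizontal bars group means of 2 clones. NOP10, NHP2, GAR1, DKC1, FBL and NOLC1 stand higher in all 4 clones with 4-OHT and NOP56 lower in all 4, while NAF1, SHQ1 and NOP58 overlap.

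The 2 H/ACA assembly factors did not pass the test in either genotype. NAF1, which occupies the place of GAR1 while the particle is assembled, had 1.30 RPKM in KO clone 66 and 0.481 RPKM in KO clone 69 with 4-OHT, against 0.386 and 0.436 RPKM without it. WT clones 15 and 54 had 0.325 and 0.507 RPKM with 4-OHT, against 0.565 and 0.535 RPKM without it. Its values rested on 10 to 30 reads a library, and the high value of KO clone 66 rested on 10 (95% interval 0.625 to 2.40 RPKM). The log2 fold change by limma-trend was 0.39 ± 0.20 in KO clones (adjusted p = 0.191) and -0.13 ± 0.20 in WT clones (adjusted p = 0.693). Without the 4-OHT library of KO clone 69 the KO value was 0.71 (adjusted p = 0.00857), so that the call turned on which of the KO libraries was kept.

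SHQ1, the chaperone that holds DKC1 before assembly, had 0.106 RPKM in KO clone 66 and 0.431 RPKM in KO clone 69 with 4-OHT, against 0.134 and 0.171 RPKM without it. The value of KO clone 66 with 4-OHT was 2 reads (95% interval 0.0128 to 0.382 RPKM), an interval that takes in the value of every other group mean. WT clones 15 and 54 had 0.251 and 0.240 RPKM with 4-OHT, against 0.183 and 0.191 RPKM without it. By limma-trend the log2 fold change was 0.13 ± 0.11 in KO clones (adjusted p = 0.426) and 0.07 ± 0.11 in WT clones (adjusted p = 0.710). At these levels the added pseudocount of 1 RPKM shrinks log2 fold changes strongly. Without the 4-OHT library of KO clone 66 the KO value was 0.31 (adjusted p = 0.0154), and without that of KO clone 69 it was -0.06.

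The 3 proteins of the C/D particle did not move together. FBL (fibrillarin), the methyltransferase of the particle, had 21.5 RPKM in KO clone 66 and 21.4 RPKM in KO clone 69 with 4-OHT, against 5.02 and 6.57 RPKM without it. In WT clones 15 and 54 it had 19.6 and 25.1 RPKM with 4-OHT, against 5.65 and 5.73 RPKM without it. No library with 4-OHT overlapped one without it. The log2 fold change by limma-trend was 1.73 ± 0.20 in KO clones (adjusted p = 0.00130) and 1.79 ± 0.20 in WT clones (adjusted p = 0.00137), called under all 11 alternatives in both.

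NOP56, which forms a scaffold with NOP58 across the C/D RNA, went the other way. It had 11.8 RPKM in KO clone 66 and 19.4 RPKM in KO clone 69 with 4-OHT, against 26.7 and 27.2 RPKM without it. In WT clones 15 and 54 it had 13.6 and 15.9 RPKM with 4-OHT, against 22.1 and 22.2 RPKM without it. It was the 1 member lower in all 4 clones, at 0.442-fold to 0.718-fold, and the libraries with and without 4-OHT did not overlap. In KO clones it fell by 0.79 ± 0.24 on the log2 scale by limma-trend (adjusted p = 0.0464), and in WT clones the log2 fold change was -0.56 ± 0.24 (adjusted p = 0.147). The KO call was kept in only 3 of 11 alternatives. It was lost with the clone as a block (adjusted p = 0.0609), by limma-voom (adjusted p = 0.111), and without the 4-OHT library of KO clone 66, where NOP56 rested on 13 reads and the value was -0.45 (adjusted p = 0.162).

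NOP58, the partner of NOP56, had 0.553 RPKM in KO clone 66 and 1.72 RPKM in KO clone 69 with 4-OHT, against 1.87 and 1.73 RPKM without it. WT clones 15 and 54 had 1.71 and 1.75 RPKM with 4-OHT, against 2.08 and 1.70 RPKM without it. In all, 7 of the 8 libraries lay between 1.70 and 2.08 RPKM, and the exception, KO clone 66 with 4-OHT, held 4 reads (95% interval 0.151 to 1.42 RPKM). By limma-trend the log2 fold change was -0.45 ± 0.28 in KO clones (adjusted p = 0.272) and -0.08 ± 0.28 in WT clones (adjusted p = 0.872). Without the 4-OHT library of KO clone 69, which leaves that low library alone in its group, the KO value was -0.85 (adjusted p = 0.0206).

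NOLC1, the phosphoprotein that accompanies both kinds of particle between Cajal bodies and the nucleolus, had 19.3 RPKM in KO clone 66 and 14.3 RPKM in KO clone 69 with 4-OHT, against 5.78 and 7.20 RPKM without it. WT clones 15 and 54 had 14.3 and 9.73 RPKM with 4-OHT, against 5.37 and 5.84 RPKM without it. It was higher with 4-OHT in all 4 clones, by 1.67-fold to 3.33-fold, without overlap. Its log2 fold change by limma-trend was 1.24 ± 0.25 in KO clones (adjusted p = 0.0101) and 0.96 ± 0.25 in WT clones (adjusted p = 0.0314). The KO call was lost without the untreated library of KO clone 66 (adjusted p = 0.0699). The WT call was lost with the clone as a block (adjusted p = 0.0657), under median-ratio scaling (adjusted p = 0.0675), and without either untreated WT library or the treated one of clone 15 (adjusted p from 0.121 to 0.160).

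**Figure D2:**
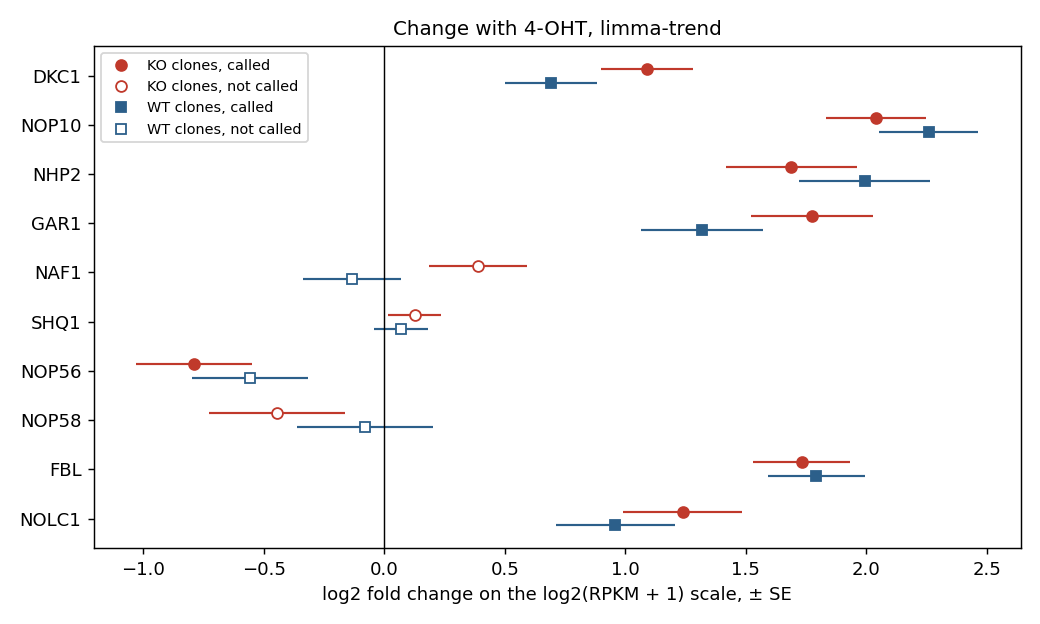
Log2 fold change with 4-OHT on the log2(RPKM + 1) scale, with its SE, in KO clones (red) and WT clones (blue); filled symbols have an adjusted p under 0.05 by limma-trend. The 4 H/ACA particle proteins, FBL and NOLC1 lie at 0.69 or more, and NOP56 lies at -0.79 in KO clones and -0.56 in WT clones.

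Counted together, 6 of the 10 members were higher and 1 lower with 4-OHT in KO clones, where 28% of all 8697 tested genes were called (17.3% higher and 10.7% lower). In WT clones 6 were higher and 0 lower, where 21.8% of tested genes were called (13.7% higher and 8.14% lower). All 10 members passed the read filter (10 recovered reads or more in 2 libraries or more), and none passed it through 1 group alone. No member was lower in WT clones at an unadjusted p under 0.05 or by limma-voom either. Over all 4 clones, 7 of the 10 members had libraries with and without 4-OHT that did not overlap, which held for 40.7% of tested genes. Median-ratio scaling moved the split of all called genes to 998 higher and 1345 lower in KO clones (1504 and 932 as deposited) and to 821 higher and 979 lower in WT clones (1191 and 708 as deposited). Leaving out 1 library moved the number of genes called to between 1111 and 3473 in KO clones and between 808 and 1082 in WT clones. Under that scaling the direction of all 10 members was the same as with the deposited scale in both genotypes.

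Set against each other, the H/ACA particle proteins had a median log2 fold change with 4-OHT of 1.73 in KO clones, against -0.45 for the C/D proteins, with 0.05 over all tested genes. In WT clones the medians were 1.66 and -0.08, with 0.06 over all tested genes. These medians are of 4 and 3 values, and that of the C/D proteins hides FBL at 1.73 and 1.79. They also leave out SNU13, a further C/D protein described below (1.60 in KO and 1.16 in WT clones). With SNU13 counted, the C/D median would lie midway between NOP58 and SNU13, that is between -0.45 and 1.60 in KO clones. In WT clones it would lie midway between -0.08 and 1.16. Both medians would then be positive and the difference narrower, so the negative C/D medians depend on leaving SNU13 out. The H/ACA against C/D difference in KO clones was 1.71 without the 4-OHT library of KO clone 66 and 2.65 without that of KO clone 69, against 2.18 with all libraries. With NAF1 and SHQ1 counted among the H/ACA proteins it was 1.84 in KO clones and 1.09 in WT clones.

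The summed RPKM of the 4 H/ACA proteins was 8.46 and 8.04 times that of the 3 C/D proteins in KO clones 66 and 69 with 4-OHT, against 2.22 and 2.28 times without it. In WT clones 15 and 54 the ratio was 8.26 and 7.35 with 4-OHT, against 1.88 and 2.55 without it. The sums run over spans of unequal length and weight the shortest genes most, so only the shift of the ratio between libraries can be read and not its size. NOP10 made up 81.1% to 86.0% of the H/ACA sum with 4-OHT and 79.0% to 81.3% without it. Without NOP10 the mean ratio over the 4 libraries was 1.32 with 4-OHT and 0.444 without it. The shift depended on which C/D protein was counted, with mean ratios of 13.3 with 4-OHT and 9.50 without it when NOP56 was left out, and of 19.0 and 2.72 when FBL was left out. NOP56 made up 34.9% to 45.7% of the C/D sum with 4-OHT, against 74.1% to 79.5% without it.

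In the ratio of geometric means each protein counts alike, and the lengths that scale the values cancel out of its shift between libraries. The 4-OHT changes themselves went with span length, as given below, and the part of that in this shift was not tested. The ratio of geometric means was 5.54 and 3.16 in KO clones 66 and 69 with 4-OHT, against 1.17 and 1.27 without it. The 5.54 came from the shallowest library, where NOP58 had 4 reads and NOP56 had 13. In WT clones 15 and 54 the ratio was 2.74 and 2.75 with 4-OHT, against 0.957 and 1.21 without it. The libraries with 4-OHT stood above those without it in this ratio too. For the H/ACA proteins the geometric mean was 28.5 ± 0.434 RPKM in KO clones with 4-OHT and 7.98 ± 0.855 RPKM without it (SD, n = 2). In WT clones it was 22.7 ± 2.34 RPKM with 4-OHT and 6.68 ± 0.823 RPKM without it. For the C/D proteins it was 7.07 ± 2.64 RPKM in KO clones with 4-OHT and 6.54 ± 0.316 RPKM without it, and in WT clones 8.27 ± 0.835 RPKM with 4-OHT and 6.19 ± 0.262 RPKM without it. The C/D values of KO clones with and without 4-OHT overlapped, with clone 66 at 5.20 RPKM below and clone 69 at 8.94 RPKM above both untreated libraries.

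**Figure D3:**
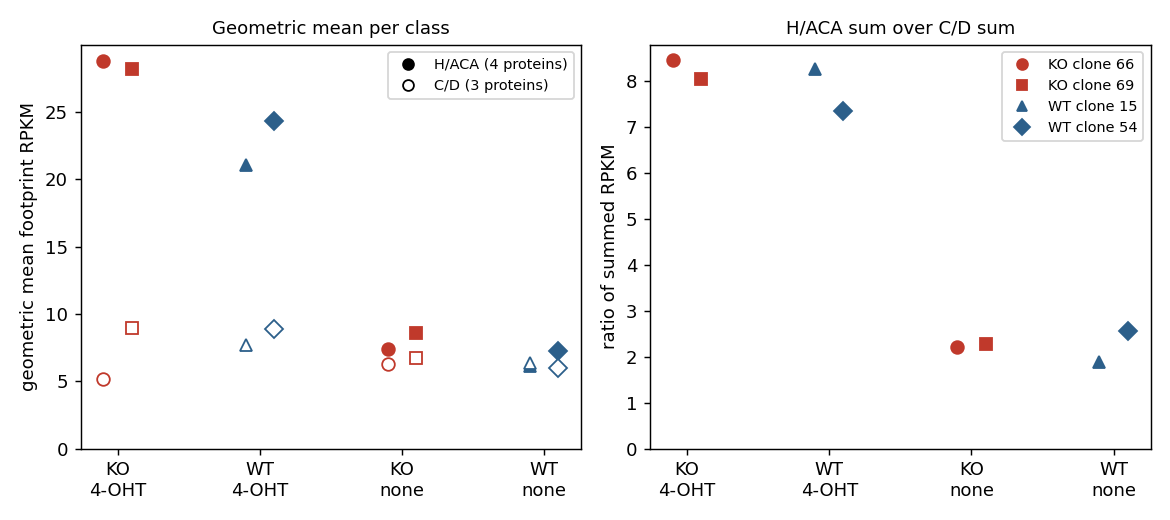
Left, geometric mean RPKM of the 4 H/ACA proteins (filled) and the 3 C/D proteins (open) in each library; right, the ratio of their summed RPKM, whose size depends on gene length and only whose shift between libraries is read. The ratio lies between 7.35 and 8.46 in the 4 libraries with 4-OHT and between 1.88 and 2.55 in the 4 without it.

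SNU13, the protein that binds C/D RNA first, is not among the 10 members but belongs to the same particle. It had 23.8 and 26.8 RPKM in KO clones 66 and 69 with 4-OHT, against 6.73 and 8.63 RPKM without it, and 19.7 and 21.1 RPKM in WT clones 15 and 54 with 4-OHT, against 8.22 and 8.89 RPKM without it. It rose by limma-trend in KO clones (log2 fold change 1.60 ± 0.19, adjusted p = 0.00130) and in WT clones (1.16 ± 0.19, adjusted p = 0.00509). With it, the C/D particle had 2 proteins that rose and 2 that did not. The C/D medians, sums, geometric means and ratios given here leave SNU13 out.

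Among the members, 3 are hosts of snoRNA genes themselves. NOP56 (chr20:2652632-2658393, plus strand) holds 5 annotated snoRNA genes, SNORD110, SNORA51, SNORD86, SNORD56 and SNORD57, which make up 7.57% of its span, and the miRNA gene MIR1292. NOP58 (chr2:202265763-202303661) holds 4, SNORD70, SNORD70B, SNORD11B and SNORD11, at 0.947% of its span. DKC1 (chrX:154762864-154777689, plus strand) holds SNORA36A and SNORA56, at 1.76%, and MIR664B. The other 7 members held none. A read from a snoRNA inside a gene would count toward that gene if the counting ignored exons, and whether any did was not tested, since the tables give 1 value a gene.

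Over all tested genes, hosts of snoRNA genes had medians close to those of the rest. The 329 tested genes with at least 1 inside their span had a median log2 fold change with 4-OHT of 0.03 in KO clones and 0.02 in WT clones, against 0.05 and 0.07 for the 8368 genes without one. Of them, 17.6% were higher and 11.6% lower in KO clones, against 17.3% and 10.7% of genes without one. In WT clones 16.1% of hosts were higher and 8.21% lower, against 13.6% and 8.14% of genes without one. The median span was 76720 bases in hosts and 33420 bases in the rest. Span length did go with the change. Taken over genes (neighbouring points share libraries and are no replicates), Spearman's rho between span and log2 fold change was -0.218 in KO clones and -0.283 in WT clones (n = 8697). The 696 genes with spans up to 5000 bases had a median of 0.74 in KO clones and 0.73 in WT clones. NOP10 (1418 bases) and NHP2 (4423 bases) are in that class, and both lay above its median. The 1620 genes of 5000 to 15000 bases had a median of 0.29 in KO clones and 0.32 in WT clones, and this class holds NOP56 (5762 bases, lower), GAR1 (9228 bases), NOLC1 (11482 bases), FBL (11922 bases) and DKC1 (14826 bases). NOP58 (37899 bases), NAF1 (62962 bases) and SHQ1 (123174 bases) have longer RefSeq spans. The 3345 genes with RefSeq spans over 50000 bases had a median of -0.01 in both. NAF1 falls in that class by its RefSeq span but not by the shorter length behind its values. The part of span length in the members' changes was not tested.

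**Figure D4:**
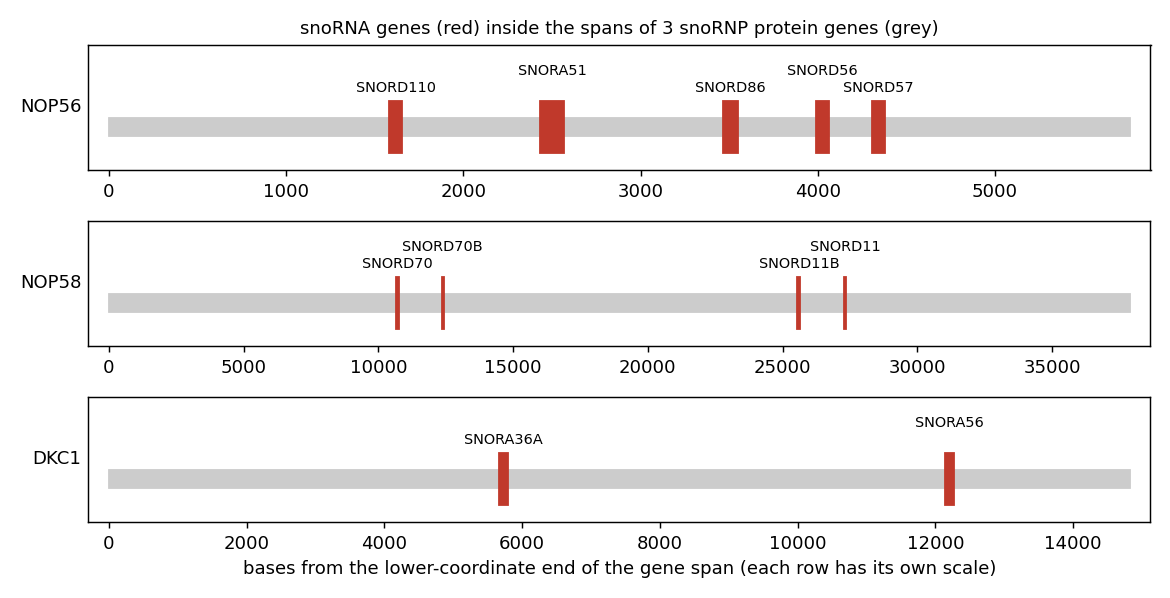
Position of annotated snoRNA genes (red) along the spans of NOP56, NOP58 and DKC1 (grey), in bases from the lower-coordinate end of each gene, each row on its own scale. NOP56, the shortest of them at 5762 bases, holds 5, NOP58 holds 4 and DKC1 holds 2.

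Between KO and WT clones no member passed the limma-trend test in either state, and none was called by limma-voom. With 4-OHT, 0 of 7675 tested genes (0%) were called by limma-trend, with 361 at an unadjusted p under 0.05 and 53 called by limma-voom. On the log2(RPKM + 1) scale GAR1 had the largest difference of the 10 members, and it was the 1 with an unadjusted p under 0.05. As a ratio of mean RPKM, KO over WT, NAF1 at 2.15 exceeded GAR1 at 1.82, but the clones of NAF1 overlapped. GAR1 averaged 10.02 ± 0.282 RPKM in KO clones with 4-OHT and 5.50 ± 1.33 RPKM in WT clones with 4-OHT (SD, n = 2 each). The log2 fold change of GAR1 was 0.78 ± 0.26 (limma-trend, unadjusted p = 0.0244, adjusted p = 0.822). DKC1 averaged 7.57 ± 0.691 RPKM in KO clones and 5.01 ± 0.494 RPKM in WT clones with 4-OHT, a log2 fold change of 0.51 ± 0.24 (adjusted p = 0.822 by limma-trend). For these 2 members the KO and WT clones with 4-OHT did not overlap, which held for 37.6% of tested genes. NOLC1 averaged 16.8 ± 3.52 RPKM in KO clones and 12.0 ± 3.27 RPKM in WT clones, which overlapped, with KO clone 69 and WT clone 15 both at 14.3 RPKM. NOP10, NHP2 and FBL differed by 0.06, -0.20 and -0.05 on the log2 scale, each less than its SE.

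NAF1 and NOP58 pointed opposite ways with 4-OHT, at log2 fold changes of 0.39 ± 0.25 and -0.41 ± 0.34, and both rested on the shallow library of KO clone 66. Without the 4-OHT library of KO clone 69, NAF1 stood at 0.71 (adjusted p = 0.0214 by limma-trend), and the number of genes called over the whole table went to 842. SHQ1 and NOP56 were at 0.01 ± 0.14 and 0.04 ± 0.30.

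Without 4-OHT, 0 of 8059 tested genes (0%) were called by limma-trend, with 687 at an unadjusted p under 0.05 and 63 called by limma-voom. NOP10 averaged 62.8 ± 3.18 RPKM in KO clones and 52.2 ± 10.4 RPKM in WT clones without 4-OHT. NOP56 averaged 27.0 ± 0.316 RPKM in KO clones and 22.1 ± 0.0786 RPKM in WT clones without 4-OHT, a log2 fold change of 0.28 ± 0.16 (adjusted p = 0.674 by limma-trend), the lowest adjusted p of any member. NAF1 averaged 0.411 ± 0.0355 RPKM in KO clones and 0.550 ± 0.0210 RPKM in WT clones, and SHQ1 0.153 ± 0.0260 RPKM in KO clones and 0.187 ± 0.00580 RPKM in WT clones. In these 4 members the clones of the genotypes did not overlap, with NOP10 and NOP56 higher and NAF1 and SHQ1 lower in KO, which compares with 39.6% of tested genes. The other 6 overlapped.

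Whether 4-OHT changed a member by a different amount in KO than in WT clones was tested as an interaction. None passed, none had an unadjusted p under 0.05, and 0 of 8697 genes (0%) were called by limma-trend, with 449 at an unadjusted p under 0.05 and 4 called by limma-voom. The estimates, KO minus WT, ran from -0.37 ± 0.40 for NOP58 to 0.52 ± 0.29 for NAF1, with 0.46 ± 0.36 for GAR1, 0.40 ± 0.27 for DKC1 and -0.06 ± 0.29 for FBL. For NAF1 the estimate was 1.18 with a pseudocount of 0.1 and 1.09 by limma-voom, without a call in either. A call in KO and not in WT clones, as for NOP56, is therefore no shown difference between them.

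**Figure D5:**
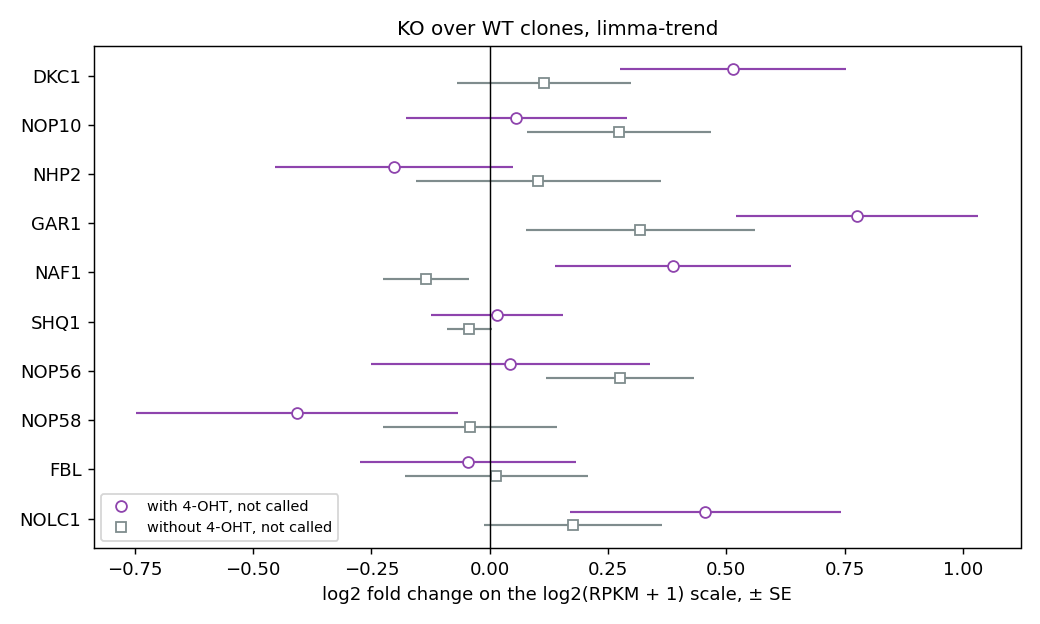
Log2 fold change of KO over WT clones on the log2(RPKM + 1) scale with its SE, with 4-OHT (purple circles) and without it (grey squares); open symbols mark that none was called. GAR1 with 4-OHT lies farthest from 0, at 0.78 ± 0.26.

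The partners of these proteins were described from 3 further lists. Of 18 genes for snoRNP assembly and transport, 16 were tested with 4-OHT. In KO clones 5 were higher and 0 lower by limma-trend (0 lower also at an unadjusted p under 0.05 and by limma-voom), with a median log2 fold change of 0.46. In WT clones 4 were higher and 1 lower, with a median of 0.36. In each genotype 31.25% of the list were called, against 28% of all tested genes in KO and 21.8% in WT clones, whose medians were 0.05 and 0.06. On the log2(RPKM + 1) scale SNU13, given above, had the largest change, followed by RUVBL2 and RUVBL1, the paired ATPases of a chaperone complex in snoRNP assembly. RUVBL2 averaged 9.04 ± 2.50 RPKM in KO clones with 4-OHT and 3.97 ± 0.211 RPKM without it, and 9.91 ± 1.58 RPKM in WT clones with 4-OHT and 4.37 ± 0.385 RPKM without it. Its log2 fold change by limma-trend was 0.99 ± 0.23 in KO clones (adjusted p = 0.0183) and 1.02 ± 0.23 in WT clones (adjusted p = 0.0198). RUVBL1 averaged 1.44 ± 0.127 RPKM in KO clones with 4-OHT and 0.446 ± 0.103 RPKM without it, and 1.88 ± 0.0897 RPKM in WT clones with 4-OHT and 0.513 ± 0.103 RPKM without it (limma-trend adjusted p = 0.0156 in KO and 0.00821 in WT clones). As a ratio of mean RPKM the order differs, with RUVBL1 at 3.23 in KO and 3.67 in WT clones, SNU13 at 3.29 and 2.38, and RUVBL2 at 2.28 and 2.27.

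Of 10 enzymes that modify ribosomal RNA without a guide, 7 were tested, and 2 were higher and 0 lower in each genotype by limma-trend. That is 28.57% of them, against 28% of all tested genes in KO and 21.8% in WT clones, and their median log2 fold change was 0.41 in KO and 0.60 in WT clones. In each genotype 1 was lower at an unadjusted p under 0.05, and 1 by limma-voom. Those that rose were METTL5, an adenosine methyltransferase of the small-subunit RNA, and TRMT112, the subunit that stabilises it. TRMT112 averaged 211 ± 5.69 RPKM in KO clones with 4-OHT and 54.9 ± 11.3 RPKM without it, and 248 ± 28.7 RPKM in WT clones with 4-OHT and 52.5 ± 2.45 RPKM without it. METTL5 averaged 9.93 ± 0.0455 RPKM in KO clones with 4-OHT and 2.69 ± 0.849 RPKM without it, and 8.28 ± 0.853 RPKM in WT clones with 4-OHT and 2.55 ± 0.585 RPKM without it. Of 12 pseudouridine synthases that work without a guide, 9 were tested. In KO clones 3 were higher (RPUSD4, PUSL1 and RPUSD3, at log2 fold changes of 1.37, 1.26 and 1.21 by limma-trend) and 0 lower, or 33.3% called against 28% of all tested genes. In WT clones 0 were called by limma-trend, with 2 higher at an unadjusted p under 0.05 and 3 higher by limma-voom. The median was 0.29 in KO clones and 0.47 in WT clones, and the difference between the genotypes was called for 0 of the 9 by either tool, with 0 at an unadjusted p under 0.05. No gene of the 3 lists was called between KO and WT clones by either tool. At an unadjusted p under 0.05 there were 0 with 4-OHT and 2 without it, both pseudouridine synthases.

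Across the 8 libraries, NOP10, NHP2 and FBL followed each other most closely, with Pearson's r of log2(RPKM + 1) between 0.976 and 0.983, although FBL belongs to the other particle. DKC1 followed NOLC1 (r = 0.966), and NOP56 ran against each of the 6 members that rose, at r from -0.725 to -0.844. These coefficients describe 8 libraries that fall into treated and untreated sets, and any genes that differ between the sets correlate.

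Among all tested genes, those with the pattern most like the mean of the 4 H/ACA proteins over the 8 libraries were HIST1H4D (r = 0.998), H1F0 (0.997), PODXL (0.996), RPL11 (0.995) and PLAUR (0.995). HIST1H4D, a histone H4 gene, had 1562 and 1746 RPKM in KO clones 66 and 69 and 967 and 1137 RPKM in WT clones 15 and 54 with 4-OHT, against 121 and 139 RPKM in KO and 80.0 and 122 RPKM in WT clones without it. The 3 C/D proteins shared no 1 pattern, since FBL ran against NOP56 (r = -0.836) and NOP58 (r = -0.455), so their mean mixes opposite changes. The genes most like that mean were ZW10 (r = 0.980), STX18 (0.973), DDX20 (0.966), RNPEPL1 (0.965) and PHF20L1 (0.964). All 5 had their lowest value in KO clone 66 with 4-OHT, the shallowest library, where 3 of them (DDX20, RNPEPL1 and PHF20L1) were listed at 0. The part of depth in this likeness was not tested.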

How the data were processed

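The 8 libraries of BJ-HRAS clones hold ribosome footprints. The authors deposited 1 value per gene and library, and the tables name no unit. It was read as RPKM over the whole gene, since values times RefSeq gene spans (GRCh38.p14) sum to between 1012310 and 1019330 in each library, as RPKM would. The authors made these RPKM values from reads aligned with STAR to GRCh38, per the submitters' processing notes, and footprints were prepared by a published profiling protocol, per the labels' protocols. The counter, its annotation, tool versions and the handling of reads that fit several places: not given in the sources used here.

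Reads were recovered from the steps of the values. Those of the 10 members came back whole within 0.03, once the length of each was fitted. The read filter and limma-voom instead took the RefSeq span of every gene as its length. For NAF1 and SHQ1, whose fitted lengths were 0.638 and 0.805 times that span, they therefore used more reads than are given here. Genes with at least 10 recovered reads in 2 or more libraries were tested with limma-trend (limma 3.58.1, R 4.3.3) on log2(RPKM + 1), which understates changes of low values. P-values were adjusted by Benjamini-Hochberg over all tested genes (threshold 0.05, no minimum fold). A count test had been the plan had the values been counts. The 4-OHT changes and their interaction used all 8 libraries, and KO against WT the 4 libraries of 1 table. With 2 libraries a group an exact permutation test cannot pass the threshold, so single values have none.

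Each clone counted as 1 replicate. Treated and untreated libraries carry the clone numbers of the labels, so the numbers pair them, although their deviations from the group means correlated little (r = 0.00730 in KO and 0.146 in WT clones). The clone as a replicate block was an alternative. The others were a pseudocount of 0.1, no filter, median-ratio scaling, leaving out ribosomal protein and mitochondrially encoded genes, limma-voom on recovered reads, other library sets in the fit and each library left out. Where that left 1 library in a group, the lone library was assumed to vary like the other groups. Named were the 10 members, the 3 called genes of largest change per list and comparison, and the 5 genes most correlated with each particle's mean profile. Members and lists were chosen with earlier results of these data known. The test was tried on simulated counts with 100 genes changed at each size. Their spread between libraries was a set value and was not taken from the data. Fewer genes changed there than the 2436 called with 4-OHT in KO clones, which makes the adjusted threshold harder to pass. The shares that follow therefore describe the simulation and are not the power of the test in these data. For 4-OHT in KO clones (8659 genes tested) the test recovered 3% of changes of 1 and 68% of changes of 2 on the log2 scale. For KO against WT with 4-OHT (7803 genes) these were 0% and 46%, and without 4-OHT (8285 genes) 4% and 62%. No per-sample column was left unused.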

Additional observations from a re-analysis of the deposited data

Results flagged for a closer look

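NAF1, the H/ACA assembly factor, was the 1 member whose 4-OHT change had opposite signs in the genotypes. It stood 3.38-fold and 1.10-fold higher in KO clones 66 and 69, against 0.575-fold and 0.948-fold in WT clones 15 and 54. The difference of the log2 fold changes, KO minus WT, was 0.52 ± 0.29 (SE) by limma-trend, with an unadjusted p of 0.110 from the model and an adjusted p of 0.857. It ran from 0.20 to 0.84 when 1 library was left out, and was 1.18 with a pseudocount of 0.1 (adjusted p = 0.891) and 1.09 by limma-voom (adjusted p = 0.997). The value of KO clone 66 with 4-OHT rested on 10 reads.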

How the results depend on the processing

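Over the alternative settings most member values kept their direction and their side of the threshold (533 of them), 22 kept the direction and lost the call, 4 gained one and 21 changed sign; where no setting's construction explains it, the cause was not tested. With 4-OHT in KO clones 1284 genes were called from the 4 libraries of the comparison alone (fewer samples), against 2436 as reported, and 1111 to 3473 with 1 library left out. In WT clones 2961 were called by limma-voom, against 1899, and 808 to 1082 with 1 library left out. Between KO and WT clones with 4-OHT, 53 were called by limma-voom and 0 to 842 with 1 library left out, against 0 by limma-trend (361 at an unadjusted p under 0.05). Without 4-OHT, 63 were called by limma-voom, 3 with all 8 libraries in the fit, 3 with the clone also as a random replicate block, and 0 to 5 with 1 library left out, against 0 by limma-trend (687 at an unadjusted p under 0.05). The interaction gave 4 by limma-voom and 0 to 2 with 1 library left out, against 0 by limma-trend (449 at an unadjusted p under 0.05). With the replicate block (same clone with and without 4-OHT) 2024 genes were called in KO and 1571 in WT clones and 0 for the interaction. The block ended the calls of NOP56 in KO clones and of DKC1 and NOLC1 in WT clones, and no other member's. Limma-voom moved the median of all genes with 4-OHT to 0.22 in both genotypes, against 0.05 in KO and 0.06 in WT clones.

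The H/ACA against C/D difference with 4-OHT in KO clones was 1.84 with NAF1 and SHQ1 added, 2.72 with a pseudocount of 0.1, and 1.71 to 2.65 with 1 library left out, against 2.18. In WT clones it was 1.09 with NAF1 and SHQ1, against 1.74. The genotypes' difference in it ran from 0.10 to 0.71 with 1 library left out, against 0.32. The ratio of summed H/ACA to C/D RPKM was 8.03 with 4-OHT and 2.23 without it. It was 1.32 with and 0.444 without 4-OHT when NOP10 was left out, 7.08 and 1.94 without NHP2, 13.3 and 9.50 without NOP56, and 19.0 and 2.72 without FBL.

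Sign changes fell on member values that were not called. For KO against WT with 4-OHT, median-ratio scaling gave -0.0033 for NOP10 and -0.012 for NOP56, and a pseudocount of 0.1 gave -0.063 for SHQ1. The NOP56 interaction was 0.023 by limma-voom. With 1 library left out, SHQ1 ran from -0.060 to 0.31 with 4-OHT in KO clones and NOP58 from -0.17 to 0.013 in WT clones. KO against WT without 4-OHT, NHP2 ran from -0.23 to 0.44, NOP58 from -0.14 to 0.051 and FBL from -0.15 to 0.18. With 4-OHT, NOP10 ran from -0.11 to 0.23, NHP2 from -0.44 to 0.033, SHQ1 from -0.17 to 0.20, NOP56 from -0.29 to 0.38 and FBL from -0.22 to 0.12. The interaction ran from -0.64 to 0.028 for NHP2, from -0.13 to 0.24 for SHQ1, from -0.57 to 0.11 for NOP56, from -0.77 to 0.039 for NOP58 and from -0.23 to 0.11 for FBL. In KO clone 66 with 4-OHT depth limits NAF1, SHQ1 and NOP58 most, which had 10, 2 and 4 reads there. GAR1 also fell to 10 reads, in WT clone 54 without 4-OHT.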
